A study of Homo sapiens with 10 samples.

Results

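The comparison described here sets H441 cells in which TET1 was transiently overexpressed from a plasmid (OE) against the H441 cells titled Lipo, by RNA sequencing of all genes. H441 is an established human lung adenocarcinoma line with an epithelial, surfactant-making character. The members were 4 of the 10 libraries in the series, OE 1 and 2 and Lipo 2 and 3, chosen by their titles. The 3 wild-type libraries (WT) and the 3 TET1 knockout libraries (KO, made with CRISPR-Cas9 from the wild-type line) entered the same statistical fit, and WT values are given beside the comparison. All cells were grown in RPMI medium with 10% fetal bovine serum, and both sides carried the unedited TET1 gene. OE cells were transfected with a plasmid holding the full-length human TET1 sequence. Lipo cells carry the same label as WT, wild type without treatment, and the labels do not say what the word Lipo means. The labels name no library given a plasmid without TET1, so an effect of TET1 and an effect of plasmid DNA cannot be told apart here. They do not say whether the libraries of a group came from separate cultures, so p-values measure only the spread between these libraries.

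TET1 is a dioxygenase that oxidises 5-methylcytosine in DNA, a step toward removal of the methyl mark, and uses iron and 2-oxoglutarate to do so. DNA methylation at promoters is a known brake on genes in cancer cells, including lung cancer. In the alveolus, type 2 cells make surfactant with the help of lipid transporters, and club cells of the small airways carry detoxifying enzymes.

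Library totals ranged from 20994462 to 25981097 counts. Levels are CPM, that is counts scaled to the size of the library, and carry no correction for gene length, so levels are compared between libraries and not between genes. Pearson correlations of log CPM were 0.984 between the Lipo libraries, 0.979 between the OE libraries and 0.951 to 0.956 across them. Mitochondrially encoded genes took 8.72% and 8.04% of counts in Lipo 2 and 3, 4.89% and 4.74% in OE 1 and 2, and 5.47% to 6.15% in WT. Of 7 epithelial lung markers, NKX2-1, EPCAM, KRT8, KRT18, KRT19 and CDH1 were not called different and SFTPB fell. The leukocyte markers PTPRC and LYZ had no counts in OE or Lipo, and CD3E had none in OE. The sum of the 6 leukocyte markers was 1.68 to 2.33 CPM in Lipo and 3.06 to 4.10 CPM in OE. The 6 fibroblast markers summed to 170.0 to 182 CPM in Lipo and 343 to 351 CPM in OE, with COL1A1 and LUM higher and COL1A2, DCN and PDGFRA at 0 in every library. In WT this sum was 177 to 288 CPM, most of it COL1A1 at 156 to 272 CPM. The 5 endothelial markers summed to 83.3 to 87.0 CPM in Lipo and 90.2 to 102 CPM in OE, nearly all of it KDR. The part of these markers in the results was not tested.

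TET1 itself, at chr10:68560656-68694482 on GRCh38, had 0 and 1 counts in Lipo 2 and 3 and 17883 and 20805 counts in OE 1 and 2. In CPM this was 0 and 0.0456 against 882 and 957, with WT at 0 to 0.267. The ratio of pooled levels was 42300, with an exact 95% interval of 7590 to 1670000 that covers counting error only, and plasmid and chromosomal transcripts cannot be told apart by these counts. Every OE library therefore matched its label. Of 26 genes of DNA methylation and demethylation tested, 3 rose (11.5%, against 6.79% of all genes) and 2 fell (7.69%, against 5.53%). The median log2 fold change was 0.04. The sister enzymes TET2 and TET3 and the methyltransferases DNMT1, DNMT3A and DNMT3B were not called. TET2 stood at 28.1 and 27.3 CPM in Lipo and 33.2 and 36.1 CPM in OE (log2 fold change 0.32 ± 0.21, adjusted p = 0.37). DNMT1, which copies methylation at replication, stood at 264 and 249.7 CPM in Lipo and 229 and 239 CPM in OE (log2 fold change -0.14 ± 0.13, adjusted p = 0.56). GADD45A, a stress protein also linked to demethylation, rose from 116 and 114 CPM to 263 and 293 CPM (log2 fold change 1.27 ± 0.14, adjusted p = 2.5e-05). Its relative GADD45B rose from 69.4 and 66.5 CPM to 197 and 206 CPM (log2 fold change 1.57 ± 0.17, adjusted p = 1.8e-05). IDH1 and IDH2 make 2-oxoglutarate, and both were called lower, IDH2 at 38.3 and 39.6 CPM in Lipo and 24.4 and 23.1 CPM in OE (log2 fold change -0.71 ± 0.18, adjusted p = 0.016). Neither of these falls was called when 1 library was left out (IDH1 adjusted p 0.13 to 0.23 without any 1 of the 4 libraries; IDH2 adjusted p 0.087 to 0.13 without any 1 of the 4 libraries). IDH1 stood at 303 and 328 CPM in Lipo and 206 and 211 CPM in OE, and WT, at 179 to 199 CPM, was below both.

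Throughout, values are CPM in the order Lipo 2 then Lipo 3, and OE 1 then OE 2. Fold changes are OE over Lipo on the log2 scale ± the standard error, and adjusted p-values come from edgeR's quasi-likelihood test with Benjamini-Hochberg adjustment over all 15832 genes tested. Genes with an adjusted p under 0.05 are called. OE was called higher for 1075 genes (6.79%) and lower for 875 (5.53%), and these shares are the background for every count of a gene list. The 3 lists of interferon-stimulated, antigen-presentation and chemokine genes, which hold 189 of the rises and none of the falls, are left aside below. Outside them 886 genes rose and 875 fell among 15598 tested, with a median log2 fold change of -0.01. With 2 libraries a side, a single library carries weight: 354 of the rises and 150 of the falls were also called, in the same direction, in each of the 4 fits that left out Lipo 2, Lipo 3, OE 1 or OE 2. Such genes are said to hold. Outside the interferon lists 202 rises and 150 falls held. Both OE values lay outside the range of all 5 wild-type-labelled libraries (Lipo and WT) for 981 of the rises and 803 of the falls.

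The largest rises outside the interferon lists, after TET1, included secreted signals and genes of innate defence. INHBA, the activin A subunit, went from 0.0833 and 0.182 CPM to 14.2 and 13.1 CPM (log2 fold change 6.64 ± 0.56, adjusted p = 1.0e-06). CACNA1I, a T-type calcium channel subunit, went from 0.167 and 0.365 CPM to 19.8 and 26.1 CPM (log2 fold change 6.42 ± 0.55, adjusted p = 1.3e-06). C3, the central complement protein, stood at 2.62 and 3.56 CPM in Lipo and 138 and 139.6 CPM in OE (log2 fold change 5.49 ± 0.29, adjusted p = 6.1e-09). In all 3 the OE libraries were far above Lipo and above WT, which for C3 ranged from 4.63 to 6.79 CPM. IL4I1, a secreted amino acid oxidase, rose from 0.416 and 0.0912 CPM to 9.47 and 11.7 CPM and the pattern-recognition protein PTX3 from 0.458 and 0.137 CPM to 14.3 and 10.2 CPM. TNFRSF9 (the receptor 4-1BB) rose from 3.21 and 1.96 CPM to 73.7 and 62.3 CPM, a fitted fold of 26.1. G0S2, an inhibitor of the lipase ATGL, stood at 15.2 and 15.2 CPM in Lipo and 236 and 251 CPM in OE (log2 fold change 4.0 ± 0.22, adjusted p = 8.6e-09). The anti-apoptotic BCL2A1 rose from 0.791 and 1.82 CPM to 21.99 and 25.02 CPM, the keratin KRT17 from 0.333 and 0.866 CPM to 14.6 and 12.5 CPM, and PLEKHA4 from 0.208 and 0 CPM to 5.87 and 6.48 CPM. The non-coding HIF1A-AS3 and KLHDC7B-DT also rose, to 12.3 and 9.24 CPM and 10.4 and 12.8 CPM, and since the strand setting of the counting is not given in the sources used here, reads of overlapping genes could be shared. Each of these rises held. NEDD8 is the exception among the 15 largest, since OE 1 had 17.1 CPM and OE 2 only 0.0920 CPM, and its calls were lost in 3 of the 4 fits (adjusted p = 0.3 without Lipo 2, 0.29 without Lipo 3 and 0.95 without OE 1).

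Among the largest falls, FMO5, a flavin monooxygenase, stood at 6.54 and 3.69 CPM in Lipo and 0.789 and 0.874 CPM in OE (log2 fold change -2.61 ± 0.38, adjusted p = 3.7e-04), 6.12-fold lower in OE. SORL1, a sorting receptor of the endosome, fell from 151 and 148 CPM to 45.8 and 40.9 CPM (log2 fold change -1.79 ± 0.22, adjusted p = 5.5e-05), with WT at 117 to 168 CPM. BCAS1, known from myelinating cells and amplified in some carcinomas, fell from 35.1 and 33.9 CPM to 8.68 and 10.9 CPM (log2 fold change -1.82 ± 0.16, adjusted p = 2.4e-06). WT had BCAS1 at 35.2 to 37.7 CPM, so in both genes OE lay below all 5 wild-type-labelled libraries. DAAM2, a formin in Wnt signalling, fell from 6.16 and 5.56 CPM to 1.77 and 0.966 CPM, and CDON, a Hedgehog co-receptor, from 7.66 and 7.06 CPM to 1.48 and 2.81 CPM. PELI2, a ubiquitin ligase of innate immune signalling, stood at 8.58 and 7.25 CPM in Lipo and 1.13 and 2.07 CPM in OE (log2 fold change -2.30 ± 0.41, adjusted p = 0.0019), but WT at 2.37 to 4.64 CPM was itself below Lipo and was not called different from OE (adjusted p = 0.079). These falls and those of C16orf89, SLC4A8 and ATP8A1 held. LONRF2 (adjusted p = 0.091 without Lipo 2 and 0.14 without OE 1), YPEL1 (adjusted p = 0.057 without Lipo 2 and 0.12 without OE 1), AQP4 (adjusted p = 0.068 without Lipo 3 and 0.08 without OE 2), PCAT6 (adjusted p 0.068 to 0.11 without any 1 of the 4 libraries) and EGR2 (adjusted p = 0.095 without Lipo 2, 0.17 without Lipo 3 and 0.2 without OE 2) did not.

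**Figure D1:**
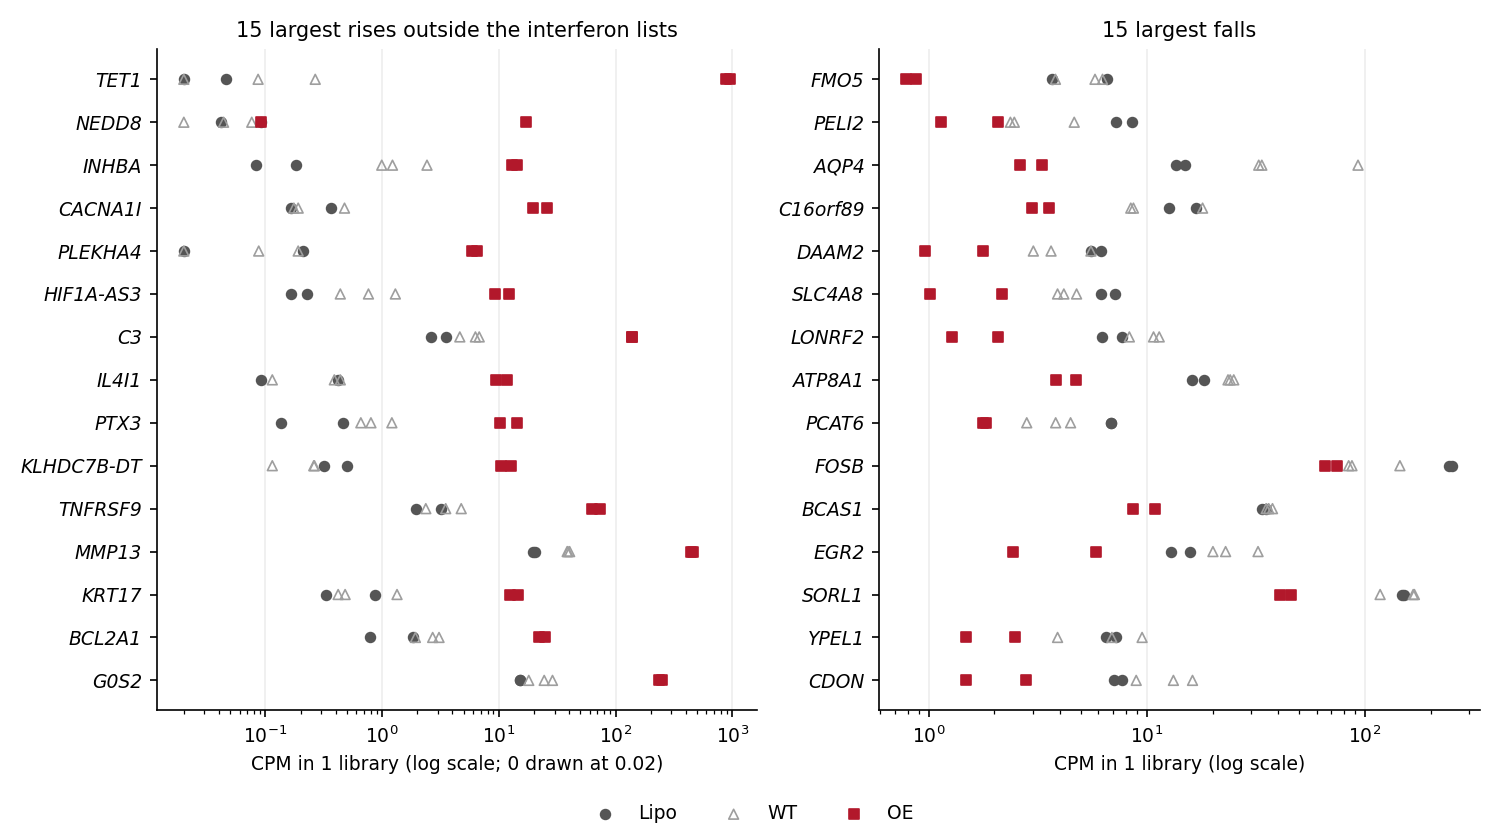
Level of each gene in each library, in CPM on a log axis, for the 15 largest rises outside the interferon lists (left) and the 15 largest falls (right); circles are Lipo, squares OE and triangles WT. OE squares stand clear of both sets of controls for INHBA, C3 and SORL1, 1 NEDD8 square stays at the control level, and 2 of the 3 WT triangles of FOSB lie nearer to OE than to Lipo.

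Components of NF-kB signalling rose together: 24 of 33 members tested were called higher and none lower, against 6.79% higher among all genes. Their median log2 fold change was 1.03, against -0.01 over all genes, and 16 of the rises held. Left out in turn, the libraries Lipo 2, Lipo 3, OE 1 and OE 2 left 18, 17, 19 and 18 calls. NF-kB is a family of dimeric transcription factors that inhibitors hold in the cytoplasm, and its targets include its own subunits and inhibitors. Matches to the kappaB letters (GGG, any 2 bases, then TTTCC), read on both strands, were found in the promoter windows (250 bases before to 50 after the start, RefSeq, GRCh38.p14) of 5 of the 21 risen members that have a window (23.8%) and in 8 of all 29 tested members (27.6%), against 2.20% of the 10802 tested genes with a window. The 200 bases before the start of 4 risen members with such a match are shown 5′ to 3′ on the gene's strand, with the kappaB letters in capitals. The match is a description of the letters and not evidence of binding. TNFAIP3 lies at chr6:137867059-137867258, plus strand, NFKBIA at chr14:35404750-35404949, minus strand, NFKB1 at chr4:102501159-102501358, plus strand and BIRC3 at chr11:102317284-102317483, plus strand.
TNFAIP3: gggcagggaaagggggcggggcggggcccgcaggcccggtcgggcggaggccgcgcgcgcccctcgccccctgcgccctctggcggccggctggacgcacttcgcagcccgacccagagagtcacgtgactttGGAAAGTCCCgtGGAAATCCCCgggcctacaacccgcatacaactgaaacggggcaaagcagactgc
NFKBIA: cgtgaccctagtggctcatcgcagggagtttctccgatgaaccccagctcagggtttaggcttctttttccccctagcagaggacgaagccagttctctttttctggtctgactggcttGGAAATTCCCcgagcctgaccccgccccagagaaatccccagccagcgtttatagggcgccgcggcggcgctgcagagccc
NFKB1: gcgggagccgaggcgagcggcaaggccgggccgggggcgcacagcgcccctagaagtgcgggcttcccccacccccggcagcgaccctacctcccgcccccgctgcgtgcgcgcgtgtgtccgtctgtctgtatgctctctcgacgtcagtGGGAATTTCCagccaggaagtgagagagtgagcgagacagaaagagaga
BIRC3: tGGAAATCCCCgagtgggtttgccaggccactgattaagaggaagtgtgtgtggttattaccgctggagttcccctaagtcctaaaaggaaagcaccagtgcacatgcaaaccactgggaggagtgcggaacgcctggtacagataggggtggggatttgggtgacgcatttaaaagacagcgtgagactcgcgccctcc
The TNFAIP3 window holds 2 matches, starting 67 and 55 bases before the start, and those of NFKBIA, NFKB1 and BIRC3 begin 81, 49 and 199 bases before it.

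Among the subunits, NFKB1 rose from 78.4 and 69.5 CPM to 143 and 151 CPM and NFKB2 from 38.1 and 39.6 CPM to 143 and 141 CPM (log2 fold change 1.87 ± 0.17, adjusted p = 2.4e-06). RELB, the partner of NFKB2 in the non-canonical pathway, showed the largest change of a subunit, from 9.57 and 10.5 CPM to 66.8 and 69.8 CPM (log2 fold change 2.76 ± 0.19, adjusted p = 1.3e-07). RELA, the main activating subunit, was called higher at 375 and 374 CPM in Lipo and 525 and 536 CPM in OE, but the call did not hold (adjusted p 0.12 to 0.16 without any 1 of the 4 libraries). Inhibitors rose as well. NFKBIA, which retains the dimers in the cytoplasm, stood at 196 and 205 CPM in Lipo and 730.0 and 746 CPM in OE (log2 fold change 1.88 ± 0.24, adjusted p = 9.7e-05). TNFAIP3, the ubiquitin-editing enzyme A20, stood at 36.3 and 34.05 CPM in Lipo and 647 and 655 CPM in OE (log2 fold change 4.21 ± 0.34, adjusted p = 9.1e-07), a fitted fold of 18.5. Its partner TNIP1 rose from 177 and 184 CPM to 681 and 654 CPM. Among adaptors and survival genes downstream of TNF receptors, BIRC3 went from 20.02 and 16.1 CPM to 164 and 181 CPM (log2 fold change 3.25 ± 0.32, adjusted p = 6.4e-06). TRAF1 went from 4.04 and 4.51 CPM to 60.1 and 71.6 CPM (log2 fold change 3.95 ± 0.29, adjusted p = 2.0e-07). The mitochondrial superoxide dismutase SOD2 and the adhesion molecule ICAM1 rose from 66.6 and 63.99 to 265 and 285 CPM and from 504 and 496 to 1763 and 1786 CPM. OE was above every WT library too, with WT at 29.8 to 66.1 CPM for TNFAIP3 and 127 to 241 CPM for NFKBIA. Except RELA, each gene given here held. NFKBIE and RELB have no entry in the list of promoter windows.

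**Figure D2:**
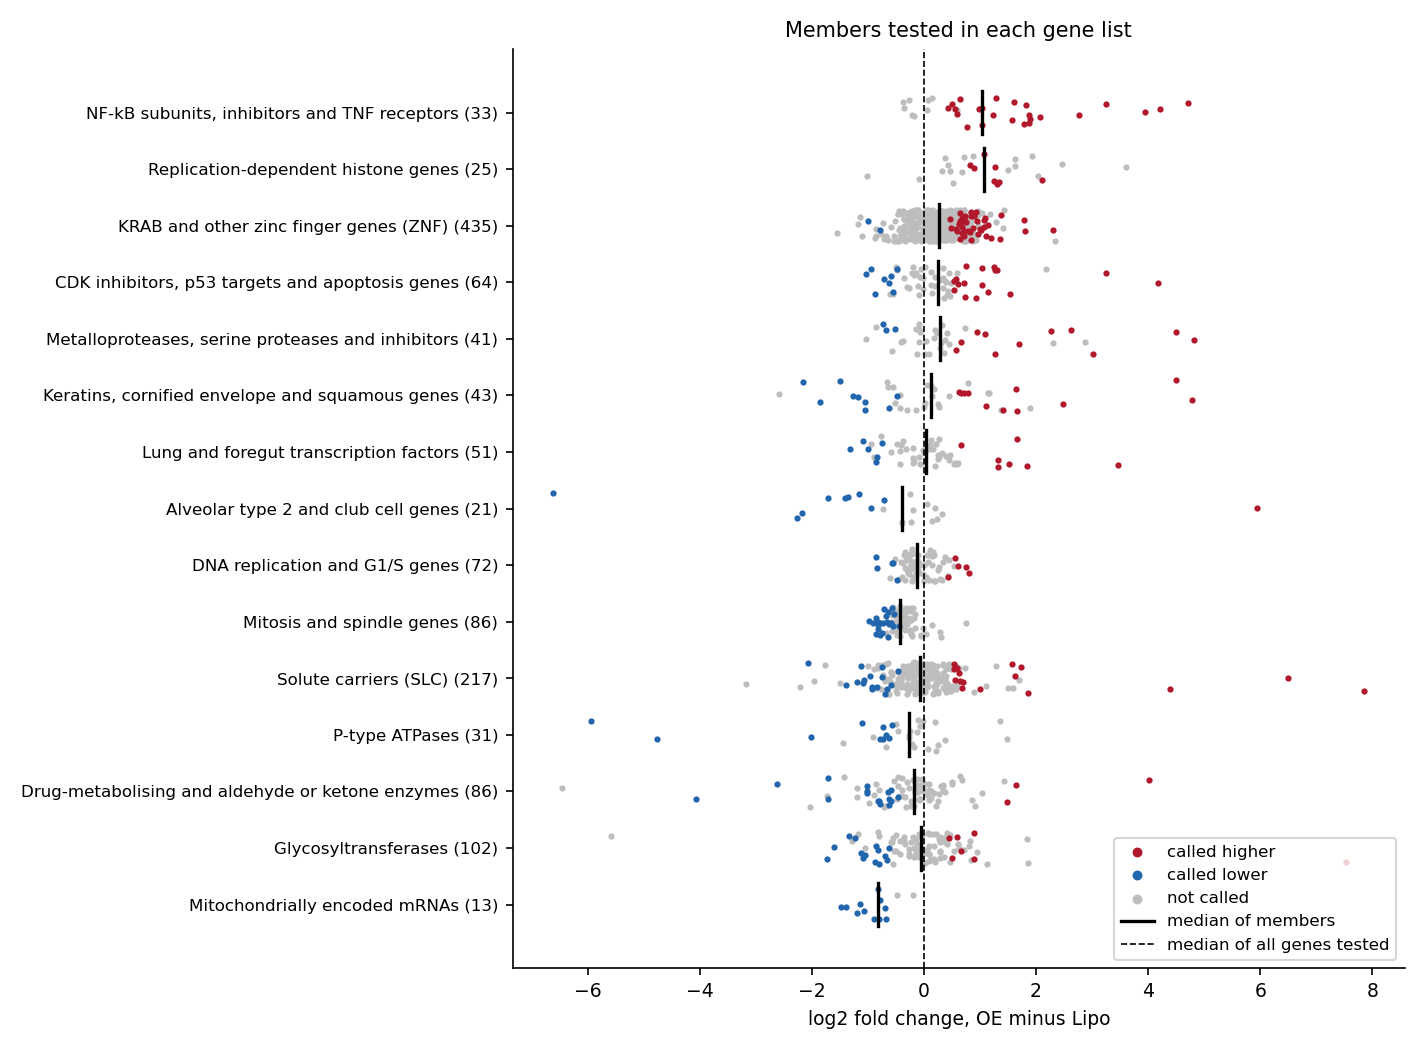
Log2 fold change of every tested member of 15 gene lists, OE minus Lipo, with the number tested in parentheses; red points were called higher, blue lower and grey not called, black bars are list medians and the dashed line is the median of all genes. NF-kB members lie to the right (median 1.03), mitochondrially encoded mRNAs to the left (median -0.82), and keratins and lung transcription factors on both sides.

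Of 41 extracellular proteases and inhibitors tested, 11 rose (26.8%, against 6.79% of all genes) and 3 fell (7.32%, against 5.53%), and 5 of the rises held. MMP13, collagenase 3, stood at 20.4 and 19.5 CPM in Lipo and 443 and 463 CPM in OE (log2 fold change 4.50 ± 0.20, adjusted p = 9.2e-10), a fitted fold of 22.7, with WT at 38.5 to 40.4 CPM. Both sides of the urokinase system rose: the enzyme PLAU from 630.4 and 613 CPM to 1186 and 1213 CPM (log2 fold change 0.95 ± 0.16, adjusted p = 9.2e-04). Its receptor PLAUR went from 53.6 and 46.6 CPM to 236 and 249 CPM (log2 fold change 2.27 ± 0.17, adjusted p = 2.6e-07). The inhibitors TFPI2 and SERPINA1 rose as well, to 202 and 206 CPM from 101 and 91.9 and to 86.7 and 90.1 CPM from 40.2 and 33.6. MMP9 was called higher at 6.54 and 5.97 CPM in Lipo and 45.01 and 56.1 CPM in OE, but WT ranged from 20.2 to 57.5 CPM and it did not hold (adjusted p = 0.092 without Lipo 2 and 0.11 without Lipo 3). Without Lipo 2, Lipo 3, OE 1 and OE 2 the list had 5, 5, 6 and 7 rises. The list of epithelial junction genes also holds laminin chains, which belong to the basement membrane and not to cell-cell junctions. Of its 37 genes tested, 4 rose (10.8%, against 6.79% of all genes) and 1 fell (2.70%, against 5.53%). All 4 rises held. Among the 4, LAMB3, a laminin chain, stood at 281 and 251 CPM in Lipo and 1603 and 1751 CPM in OE (log2 fold change 2.66 ± 0.19, adjusted p = 1.7e-07). LAMA3, another laminin chain, stood at 124 and 121 CPM in Lipo and 291 and 295 CPM in OE (log2 fold change 1.26 ± 0.18, adjusted p = 2.5e-04). The tight-junction gene CLDN1 rose from 28.8 and 35.9 CPM to 115 and 113 CPM. CDH1 and EPCAM, the leading epithelial adhesion genes, were not called, at fold changes of 0.10 ± 0.13 and 0.26 ± 0.13.

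Solute carriers, the main family of membrane transporters for ions, metabolites and drugs, moved in both directions. Of 217 tested, 16 rose and 16 fell, a share of 7.37% each against 6.79% and 5.53% of all genes, and the median log2 fold change was -0.07. Of these, 3 rises and 5 falls held, and without Lipo 2, Lipo 3, OE 1 and OE 2 there were 3, 4, 7 and 4 rises and 6, 5, 6 and 5 falls. Among the falls, SLC16A7, the monocarboxylate transporter MCT2, went from 31.8 and 29.4 CPM to 10.6 and 12.7 CPM (log2 fold change -1.39 ± 0.22, adjusted p = 7.0e-04). SLC40A1, ferroportin, the exporter of iron, went from 78.4 and 80.2 CPM to 34.7 and 40.3 CPM (log2 fold change -1.08 ± 0.19, adjusted p = 0.0014). SLC12A2, the basolateral sodium-potassium-chloride cotransporter that feeds chloride secretion, went from 35.01 and 37.97 CPM to 18.6 and 18.7 CPM (log2 fold change -0.97 ± 0.18, adjusted p = 0.0021). The OE values of these 3 were also below WT, at 25.02 to 31.2 CPM for SLC16A7, 116 to 144 CPM for SLC40A1 and 30.3 to 31.1 CPM for SLC12A2. The phosphate transporter SLC20A1 stood at 151 and 130.1 CPM in Lipo and 76.9 and 71.5 CPM in OE, and the sodium-driven chloride-bicarbonate exchanger SLC4A8 at 7.16 and 6.15 CPM in Lipo and 2.17 and 1.01 CPM in OE.

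Among the carriers that rose, SLC15A3, a lysosomal peptide and histidine transporter of innate immune cells, had 0 and 5 counts in Lipo and 169 and 272 in OE, or 8.33 and 12.5 CPM (log2 fold change 6.50 ± 0.87, adjusted p = 1.6e-04). The organic anion transporter SLCO3A1 rose from 10.1 and 9.25 CPM to 29.4 and 27.96 CPM (log2 fold change 1.57 ± 0.22, adjusted p = 2.6e-04), above WT at 10.5 to 15.7 CPM. SLC6A14, a broad amino acid transporter, was higher at 8.58 and 5.56 CPM in Lipo and 27.02 and 24.3 CPM in OE (log2 fold change 1.86 ± 0.26, adjusted p = 2.1e-04), although WT ranged from 17.2 to 18.7 CPM and OE was not called against it (adjusted p = 0.1). SLC6A12, the betaine and GABA transporter, had no count in either Lipo library and 31 and 21 in OE, at least 19-fold higher (the group without counts is set to 3), and did not hold (adjusted p = 0.075 without Lipo 2, 0.076 without Lipo 3 and 0.061 without OE 1).

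P-type ATPases, pumps that move ions or flip lipids at the cost of ATP, moved mostly down: 10 of 31 tested were called lower and none higher, against 5.53% lower among all genes, with a median of -0.26. For all 10 the OE values lay below every Lipo and WT library. Of the 10, 6 belong to the ATP8 and ATP11 families, 2 are copper pumps and 2 belong to the ATP13A family. The ATP8 and ATP11 families are lipid flippases, which move phospholipids to the inner face of membranes. ATP8A1 stood at 16.1 and 18.3 CPM in Lipo and 4.73 and 3.82 CPM in OE (log2 fold change -2.01 ± 0.22, adjusted p = 2.3e-05), against 23.6 to 25.02 CPM in WT. ATP8B1 went from 87.3 and 89.5 CPM to 53.4 and 49.9 CPM and ATP11A from 217 and 208 CPM to 131 and 126 CPM, with ATP11B called lower too. The copper pumps ATP7A and ATP7B went from 26.5 and 25.7 to 16.1 and 15.4 CPM and from 4.54 and 6.88 to 2.61 and 2.67 CPM. ATP8B3 had 45 and 21 counts in Lipo and 0 and 2 in OE, a ratio of pooled levels of 30.2 in favour of Lipo with an exact 95% interval of 8.03 to 254. ATP13A4 had 9 and 6 counts in Lipo and none in OE, at least 4.57-fold lower. Few of these calls held: ATP8A1 held, ATP8B3 was lost without 1 library (adjusted p = 0.058 without OE 1), and the other 8 were called in none of the 4 fits, which left 2, 2, 1 and 2 calls without Lipo 2, Lipo 3, OE 1 and OE 2. Of the 22 subunits of the vacuolar proton pump tested, edgeR called none; at an unadjusted p under 0.05 there were 1 higher and 1 lower, and DESeq2 called 1 lower.

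**Figure D3:**
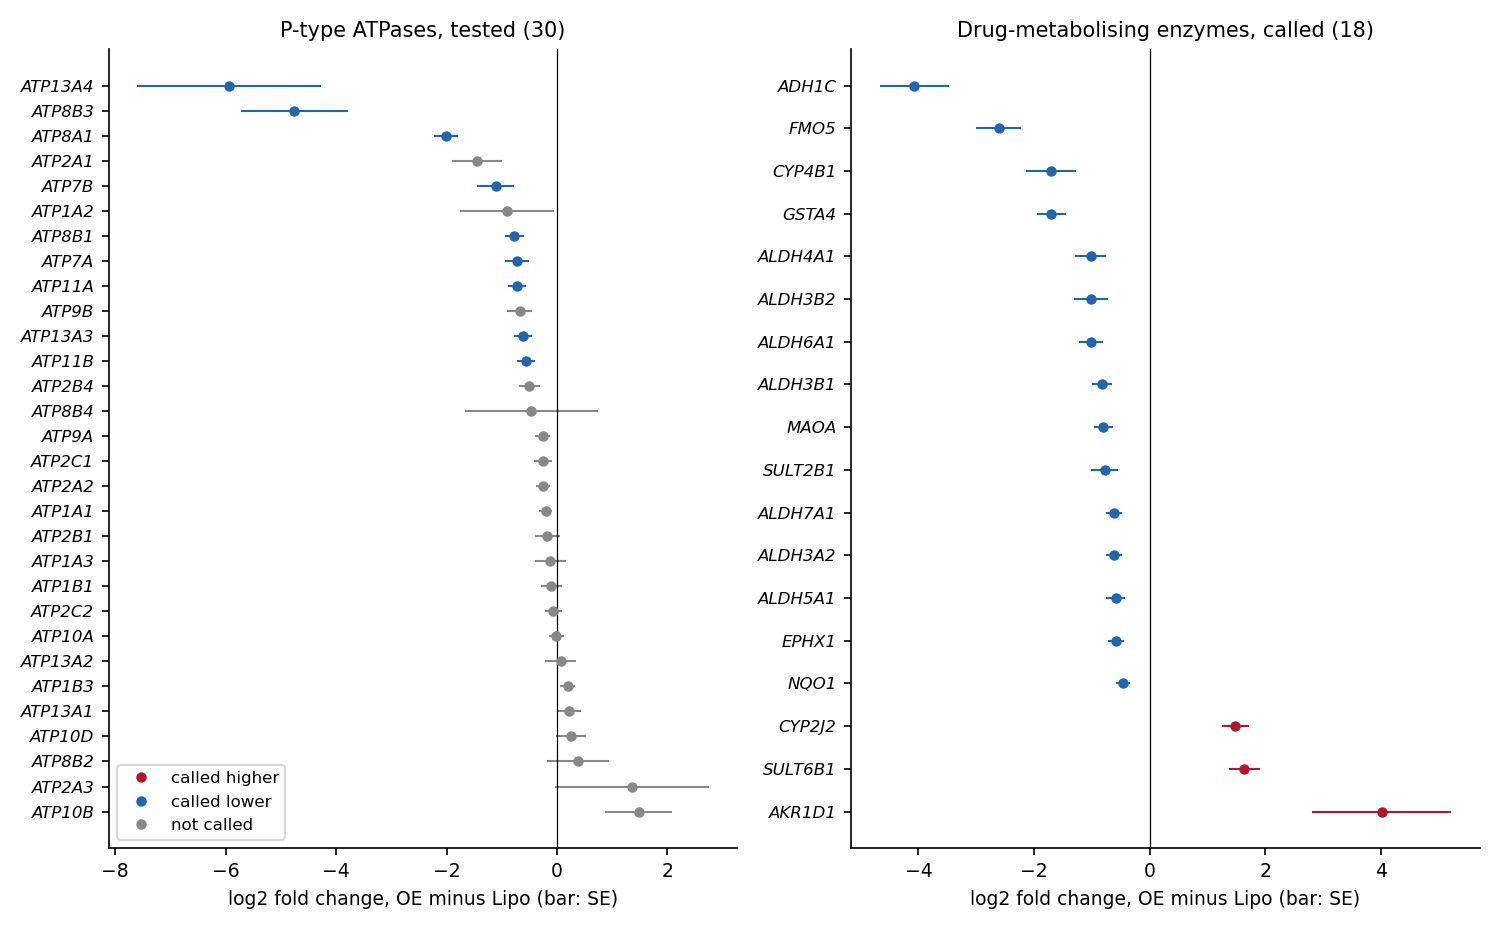
Log2 fold change with its standard error, OE minus Lipo, for 30 of the 31 P-type ATPases tested (left) and 18 of the 19 drug-metabolising enzymes called (right); blue was called lower, red higher and grey not called. No P-type ATPase is red, and 15 of the 18 enzymes drawn lie left of 0.

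ABCA3, which loads surfactant lipid into lamellar bodies, fell from 24.02 and 22.3 CPM to 10.4 and 10.4 CPM (log2 fold change -1.16 ± 0.21, adjusted p = 0.0021), and was 34.5 to 40.8 CPM in WT. ABCC9, a regulatory subunit of ATP-sensitive potassium channels, rose from 2.29 and 1.23 CPM to 11.4 and 11.3 CPM (log2 fold change 2.68 ± 0.46, adjusted p = 0.0015). ABCA1, the cholesterol exporter, was higher at 11.3 and 9.94 CPM in Lipo and 25.1 and 25.9 CPM in OE (log2 fold change 1.26 ± 0.23, adjusted p = 0.0024), and its call was lost in 1 fit (adjusted p = 0.0503 without Lipo 3). In all, 3 of 30 ABC transporters rose (10.0%) and 4 fell (13.3%), and without Lipo 2, Lipo 3, OE 1 and OE 2 there were 2, 1, 2 and 2 rises and 1, 1, 1 and 3 falls. Among 89 channels and aquaporins, 3 rose (3.37%) and 5 fell (5.62%), no more than the 6.79% and near the 5.53% of all genes, with 1, 1, 1 and 2 rises and 4, 2, 1 and 2 falls in the same 4 fits. The water channel AQP4 stood at 13.6 and 14.9 CPM in Lipo and 3.30 and 2.62 CPM in OE with WT higher still, at 32.6 to 92.9 CPM, while AQP5 had 12 and 12 counts in Lipo and none in OE, at least 7.32-fold lower, and did not hold (adjusted p = 0.057 without Lipo 3, 0.088 without OE 1 and 0.089 without OE 2). The voltage-gated calcium channel CACNA1D fell from 4.79 and 4.92 CPM to 1.43 and 1.89 CPM (log2 fold change -1.54 ± 0.32, adjusted p = 0.0051; adjusted p = 0.076 without OE 1), the opposite direction to CACNA1I.

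Drug-metabolising enzymes, with the aldehyde and ketone enzymes beside them, were called lower in 16 of 86 cases (18.6%, against 5.53% of all genes) and higher in 3 (3.49%, against 6.79%), with a median of -0.18. With WT as the control 15 were lower and 12 higher. ADH1C, an alcohol dehydrogenase, went from 2.87 and 3.69 CPM to 0.148 and 0.230 CPM (log2 fold change -4.07 ± 0.60, adjusted p = 3.7e-04). GSTA4, a glutathione transferase for lipid aldehydes, went from 7.58 and 7.61 CPM to 2.02 and 2.62 CPM (log2 fold change -1.71 ± 0.25, adjusted p = 3.9e-04). With FMO5, these are the 3 falls that held. The falls that did not hold include the aldehyde dehydrogenases ALDH3A2, ALDH3B1, ALDH3B2, ALDH4A1, ALDH5A1, ALDH6A1 and ALDH7A1, named here after their values were seen. ALDH3B1 among them stood at 95.8 and 92.1 CPM in Lipo and 50.8 and 55.5 CPM in OE (log2 fold change -0.82 ± 0.17, adjusted p = 0.0066; adjusted p = 0.056 without Lipo 2 and 0.091 without OE 1). MAOA, monoamine oxidase A, stood at 41.3 and 48.5 CPM in Lipo and 24.3 and 27.2 CPM in OE (log2 fold change -0.80 ± 0.17, adjusted p = 0.0054; adjusted p = 0.091 without Lipo 3 and 0.09 without OE 1). Rises were seen in CYP2J2, an epoxygenase of arachidonic acid, from 12.7 and 12.9 CPM to 35.3 and 36.01 CPM (log2 fold change 1.48 ± 0.24, adjusted p = 7.7e-04). SULT6B1, a sulfotransferase, rose from 21.7 and 23.8 CPM to 72.5 and 68.98 CPM (log2 fold change 1.64 ± 0.27, adjusted p = 9.8e-04), and both rises held. For NQO1, EPHX1, CYP4B1, ALDH6A1, ALDH4A1, ALDH3B2 and SULT2B1, among others, OE was not called against WT, and EPHX1 and NQO1 in WT, at 225 to 247 and 306 to 335 CPM, were near OE (244 and 242 and 305 and 313 CPM) and below Lipo (347 and 379 and 432 and 416 CPM). Without Lipo 2, Lipo 3, OE 1 and OE 2, 6, 4, 3 and 7 falls were called.

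In central metabolism the numbers of genes called were small, and the shares of falls ranged from below to above the 5.53% of all genes. Of 26 genes of the tricarboxylic acid cycle, 4 fell (15.4%) and none rose, with 2, 1, 1 and 1 falls called without Lipo 2, Lipo 3, OE 1 and OE 2. ACO1, the cytosolic aconitase that doubles as an iron sensor, stood at 106 and 121 CPM in Lipo and 36.1 and 36.2 CPM in OE (log2 fold change -1.64 ± 0.18, adjusted p = 1.7e-05), against 94.7 to 114 CPM in WT, and held. PDK3, a kinase that switches off pyruvate dehydrogenase, fell from 31.01 and 33.9 CPM to 16.3 and 14.99 CPM (log2 fold change -1.05 ± 0.20, adjusted p = 0.0031). PFKFB4, which raises the glycolytic activator fructose 2,6-bisphosphate, rose from 18.9 and 20.2 CPM to 38.8 and 37.7 CPM (log2 fold change 0.97 ± 0.17, adjusted p = 0.0018). For PFKFB4 WT lay between, at 31.5 to 33.99 CPM, and OE was not called against it (adjusted p = 0.32). The electron-transfer enzyme ETFDH of fatty acid oxidation fell from 33.2 and 33.2 CPM to 16.1 and 15.2 CPM (log2 fold change -1.09 ± 0.15, adjusted p = 2.4e-04). The pyrimidine salvage enzyme UPP1 rose from 109 and 96.4 CPM to 295 and 305 CPM (log2 fold change 1.54 ± 0.17, adjusted p = 2.4e-05). All 5 held. Of 40 genes of fatty acid synthesis, storage and oxidation, 2 rose (5.0%) and 5 fell (12.5%), and 1 of the falls held. Among 31 of nucleotide synthesis, 1 rose (3.23%) and 3 fell (9.68%), and no fall held. Glycolysis had 2 rises (8.0%) and 1 fall (4.0%) in 25 genes. Cholesterol synthesis and uptake had 2 rises (7.14%) and 1 fall (3.57%) in 28. In 36 genes of serine, one-carbon and amino acid synthesis, none rose and 2 fell (5.56%). The shares of all genes were 6.79% and 5.53%.

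Messenger RNAs encoded in the mitochondrial genome were lower in OE: 11 of 13 were called (84.6%, against 5.53% of all genes) and 7 held, with a median log2 fold change of -0.82. With WT as the control, 6 were called lower and 1 higher, with a median of -0.11. MT-CO3, a subunit of cytochrome c oxidase, stood at 6406 and 6238 CPM in Lipo and 2491 and 2325 CPM in OE (log2 fold change -1.39 ± 0.17, adjusted p = 6.6e-05). MT-ND5 of complex I stood at 6892 and 5875 CPM in Lipo and 2867 and 2730.4 CPM in OE (log2 fold change -1.19 ± 0.15, adjusted p = 8.7e-05). WT lay between for MT-CO3, at 3721 to 4596 CPM, whereas MT-ND6, at 13.5 and 10.6 CPM in Lipo and 4.73 and 3.86 CPM in OE, was higher in WT (40.8 to 42.6 CPM) than in either. For 5 of the 11 (MT-CYB, MT-ND1, MT-CO2, MT-ND4 and MT-ND4L, of which MT-ND4L alone held) OE was not called against WT, and Lipo was called above WT. MT-CYB stood at 4137 and 3854 CPM in Lipo and 2339 and 2254 CPM in OE and 1897 to 2478 CPM in WT. Of 76 nuclear-encoded subunits of the respiratory chain, 1 fell and none rose, with a median of -0.09.

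Glycosyltransferases, which build the sugar chains of mucins and membrane proteins, fell in 14 of 102 cases (13.7%, against 5.53% of all genes) and rose in 7 (6.86%, near the 6.79% of all genes), and 5 of the falls held. B3GNT6, which makes the core 3 structure of mucins, stood at 218 and 219.5 CPM in Lipo and 66.7 and 66.2 CPM in OE (log2 fold change -1.72 ± 0.24, adjusted p = 2.2e-04), against 161 to 304 CPM in WT. GALNT11, which starts O-glycans, fell from 54.5 and 57.2 CPM to 20.9 and 23.4 CPM (log2 fold change -1.33 ± 0.15, adjusted p = 3.3e-05). GALNT6, of the same family, fell from 207 and 201 CPM to 96.97 and 101 CPM (log2 fold change -1.04 ± 0.14, adjusted p = 1.3e-04), although OE was not called against WT for GALNT6 (adjusted p = 0.067). ST6GALNAC1, the sialyltransferase that makes the sialyl-Tn antigen, fell from 126 and 133 CPM to 65.1 and 57.1 CPM (log2 fold change -1.08 ± 0.15, adjusted p = 2.7e-04). The fifth is ST8SIA4, a polysialyltransferase, at 17.98 and 19.4 CPM in Lipo and 8.43 and 8.78 CPM in OE. On the other side, HAS2, a hyaluronan synthase, had no counts in Lipo and 18 and 24 in OE, at least 15.3-fold higher (adjusted p = 0.066 without Lipo 2 and 0.065 without Lipo 3), and EXT1, of heparan sulfate synthesis, rose by 0.66 ± 0.15 without holding (adjusted p 0.071 to 0.1 without any 1 of the 4 libraries). Counts of falls without Lipo 2, Lipo 3, OE 1 and OE 2 were 6, 5, 5 and 7, and of rises 1, 0, 3 and 2.

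Of 21 genes tested in the list of alveolar type 2 and club cells, 9 fell (42.9%, against 5.53% of all genes) and 1 rose (4.76%), with a median of -0.39. The list is not pure, since it also holds HOPX and AQP5, better known from alveolar type 1 cells. Both are among the 9 falls. Without Lipo 2, Lipo 3, OE 1 and OE 2 there were 7, 4, 5 and 5 falls. SFTPB, surfactant protein B, stood at 74.7 and 77.1 CPM in Lipo and 30.1 and 29.3 CPM in OE (log2 fold change -1.35 ± 0.18, adjusted p = 1.3e-04). C16orf89, a secreted protein of lung and thyroid, fell from 12.7 and 16.7 CPM to 3.55 and 2.99 CPM (log2 fold change -2.17 ± 0.34, adjusted p = 7.0e-04). HOPX went from 52.4 and 53.8 CPM to 28.7 and 26.3 CPM (log2 fold change -0.95 ± 0.16, adjusted p = 0.0012). With ABCA3, these 4 falls held. SFTPA2, one of a pair of near-identical surfactant protein A genes whose reads may be split between them, was called lower at 1578 and 1712 CPM in Lipo and 1005 and 1008 CPM in OE but did not hold (adjusted p = 0.1 without Lipo 3, 0.094 without OE 1 and 0.082 without OE 2), and its twin SFTPA1 was not called (-0.22 ± 0.14). Lipo was itself below WT for several of these: SFTPB stood at 180.1 to 218 CPM and SFTPA2 at 3686 to 4669.8 CPM in WT, so the order from high to low was WT, Lipo, OE. The exception was LAMP3, a lysosomal membrane protein of type 2 cells that is also known as an interferon-induced gene, which rose from 3.54 and 3.69 CPM to 223 and 225 CPM (log2 fold change 5.95 ± 0.42, adjusted p = 1.7e-07) and held.

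Transcription factors of lung and foregut moved both ways, with 7 rises (13.7%, against 6.79% of all genes) and 6 falls (11.8%, against 5.53%) among 51 tested. There were 5, 3, 3 and 4 rises and 3, 3, 2 and 2 falls without Lipo 2, Lipo 3, OE 1 and OE 2. NKX2-1, the master regulator of lung epithelium, was not called, at 212 and 217 CPM in Lipo and 215 and 213 CPM in OE (log2 fold change 0.00 ± 0.16, adjusted p = 1). SOX9, of the distal lung bud, rose from 7.83 and 6.75 CPM to 23.3 and 23.04 CPM (log2 fold change 1.67 ± 0.22, adjusted p = 1.2e-04). GATA6 went from 4.70 and 4.51 CPM to 12.2 and 14.3 CPM (log2 fold change 1.52 ± 0.26, adjusted p = 0.0016). KLF4 went from 23.4 and 21.6 CPM to 56.5 and 55.5 CPM (log2 fold change 1.31 ± 0.22, adjusted p = 0.0011). SOX2, of the proximal airway, was lower at 69.8 and 75.1 CPM in Lipo and 30.96 and 36.8 CPM in OE (log2 fold change -1.10 ± 0.20, adjusted p = 0.0019). NFIA stood at 39.01 and 40.2 CPM in Lipo and 21.5 and 18.4 CPM in OE (log2 fold change -0.99 ± 0.17, adjusted p = 0.0014). These 5 held, but WT had SOX2 at 23.3 to 31.3 CPM, like OE and unlike Lipo (adjusted p for OE against WT = 0.33).

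Keratins and squamous genes split as well, with 11 rises (25.6%, against 6.79% of all genes) and 9 falls (20.9%, against 5.53%) among 43 tested. These counts fell to 3, 5, 4 and 5 rises and 4, 5, 4 and 2 falls without Lipo 2, Lipo 3, OE 1 and OE 2. KRT81 rose from 5.29 and 5.42 CPM to 31.1 and 28.6 CPM (log2 fold change 2.48 ± 0.27, adjusted p = 1.8e-05) beside KRT17. KRT6A, which shares sequence with KRT6B and KRT6C, rose from 11.3 and 9.94 CPM to 34.9 and 31.96 CPM (log2 fold change 1.65 ± 0.29, adjusted p = 0.0018), although OE was not called against WT at 18.2 to 35.9 CPM (adjusted p = 0.21). KRT4, a keratin of wet stratified epithelium, fell from 123 and 144 CPM to 51.8 and 43.3 CPM (log2 fold change -1.49 ± 0.18, adjusted p = 6.7e-05). The cornified-envelope precursor IVL fell from 63.4 and 54.01 CPM to 27.9 and 24.1 CPM (log2 fold change -1.18 ± 0.24, adjusted p = 0.0046; adjusted p = 0.07 without OE 2). Among secretory genes AGR2, a disulfide isomerase of mucus-making cells, rose from 147 and 161 CPM to 319 and 342 CPM (log2 fold change 1.10 ± 0.18, adjusted p = 8.2e-04), while both CLDN10 and VTCN1 fell to 2.71 and 3.17 CPM from 8.45 and 10.5 and to 2.66 and 2.44 CPM from 7.20 and 9.21. MUC1 was not called (0.20 ± 0.14). Of 16 ciliated cell genes tested, edgeR called none; 5 were lower at an unadjusted p under 0.05, and DESeq2 called 1 lower.

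Of 86 mitosis and spindle genes tested, 22 were called lower (25.6%, against 5.53% of all genes), none was called higher and 64 were not called. A negative fold change was found in 81 of the 86, against 8023 of all 15832 genes, and the median was -0.43. Both OE libraries lay below all 5 wild-type-labelled libraries for 65 of the 86, against 20.0% of all genes. TOP2A, the topoisomerase that untangles sister chromatids, stood at 565 and 598 CPM in Lipo and 329 and 328 CPM in OE (log2 fold change -0.82 ± 0.15, adjusted p = 0.0021), with WT at 607 to 654 CPM. ASPM, a spindle-pole protein, stood at 58.4 and 59.4 CPM in Lipo and 29.1 and 30.6 CPM in OE (log2 fold change -0.98 ± 0.17, adjusted p = 0.0014). The checkpoint kinase BUB1B stood at 88.8 and 103 CPM in Lipo and 52.01 and 55.9 CPM in OE (log2 fold change -0.83 ± 0.15, adjusted p = 0.002; adjusted p = 0.0509 without OE 1). The kinetochore protein CENPF stood at 181 and 179 CPM in Lipo and 101 and 108 CPM in OE (log2 fold change -0.79 ± 0.14, adjusted p = 0.0021; adjusted p = 0.0541 without OE 1). The proliferation marker MKI67 and the cyclin CCNB1 moved the same way without passing the threshold, at log2 fold change -0.47 ± 0.16, adjusted p = 0.062 and log2 fold change -0.42 ± 0.14, adjusted p = 0.061. Only 3 falls held, those of TOP2A, ASPM and DLGAP5, and without Lipo 2, Lipo 3, OE 1 and OE 2 there were 9, 9, 4 and 7 calls. With WT in place of Lipo 47 members were called lower.

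Many mitotic genes are known to be controlled through the CHR element and NF-Y (CCAAT) boxes near their start. The CHR letters TTTGAA, read on both strands, were present in the promoter windows of 13 of the 22 members called lower (59.1%) and in 43 of the 70 tested members with a window (61.4%), against 10.0% of the 10802 genes. The box CCAAT was in 68.2% of the 22, 72.9% of the 70 and 36.6% of all. The share was no higher in the members called lower than in the whole list. The 200 bases before the start of 3 of them are given with both kinds of match in capitals, and no match overlaps another. ASPM lies at chr1:197146670-197146869, minus strand, BUB1B at chr15:40160869-40161068, plus strand and TOP2A at chr17:40417897-40418096, minus strand.
ASPM: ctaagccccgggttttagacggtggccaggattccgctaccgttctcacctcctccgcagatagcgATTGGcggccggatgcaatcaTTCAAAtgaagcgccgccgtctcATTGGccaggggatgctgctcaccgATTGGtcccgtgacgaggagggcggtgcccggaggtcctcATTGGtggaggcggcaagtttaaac
BUB1B: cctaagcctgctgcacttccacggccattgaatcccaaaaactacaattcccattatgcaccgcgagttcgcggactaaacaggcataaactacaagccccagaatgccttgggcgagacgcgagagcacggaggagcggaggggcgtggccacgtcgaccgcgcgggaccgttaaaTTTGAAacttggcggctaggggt
TOP2A: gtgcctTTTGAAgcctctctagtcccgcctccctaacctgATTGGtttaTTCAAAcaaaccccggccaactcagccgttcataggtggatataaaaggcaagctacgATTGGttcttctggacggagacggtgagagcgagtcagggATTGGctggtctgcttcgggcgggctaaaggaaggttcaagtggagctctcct
ASPM holds 1 CHR match and 4 CCAAT matches in these bases, TOP2A holds 2 and 3, and BUB1B holds 1 and none.

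**Figure D4:**
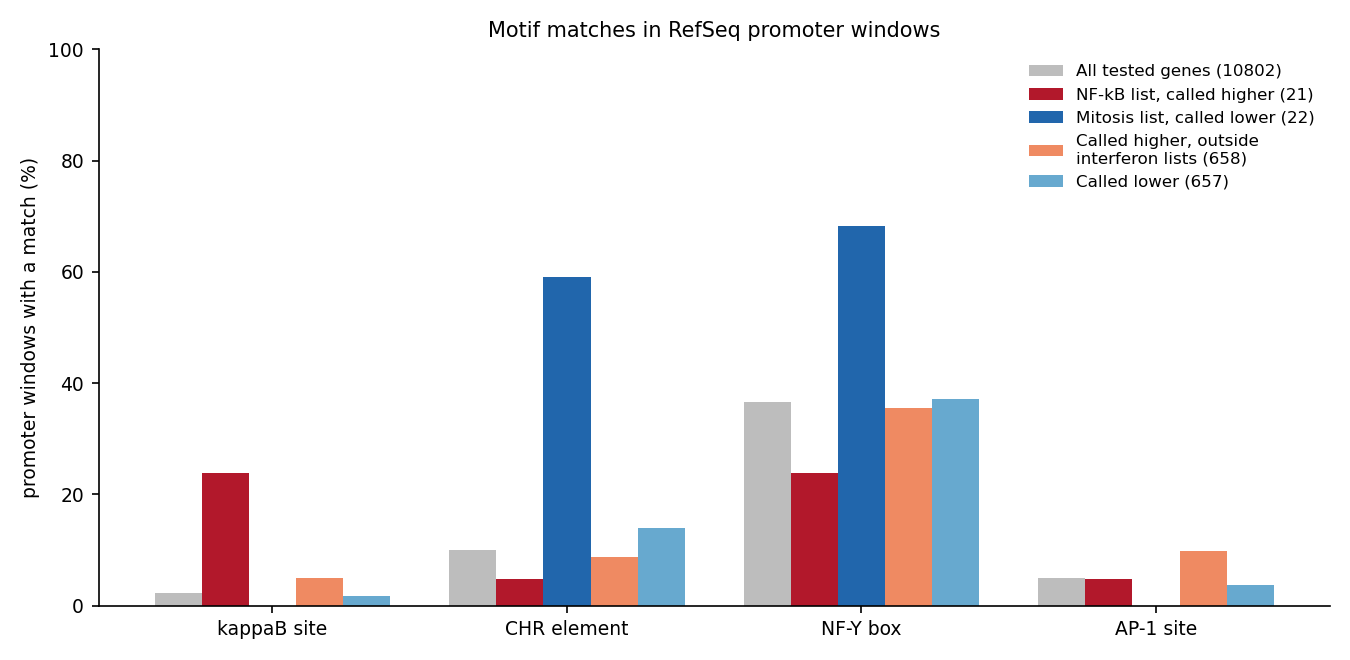
Share of RefSeq promoter windows with a match to each motif, in percent, for all tested genes, the NF-kB list called higher, the mitosis list called lower, all genes called higher outside the interferon lists and all genes called lower, with the number of windows in the key. The kappaB bar is tallest for the NF-kB list (23.8%) and the CHR and NF-Y bars for the mitosis list (59.1% and 68.2%).

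Of 72 genes of DNA replication and the G1/S step tested, 5 rose and 5 fell (6.94% each, near the shares of all genes), and none of the 10 held. The median was -0.12, with 44 negative fold changes. Both OE libraries lay below all 5 wild-type-labelled libraries for 33 of the 72, against 20.0% of all genes, and above them for 13, against 21.0%. With WT as the control 17 were called lower and 7 higher. The cyclins CCND3 (54.2 and 54.8 CPM in Lipo and 93.7 and 96.8 CPM in OE; log2 fold change 0.81 ± 0.16, adjusted p = 0.0048), CCNE1 (0.75 ± 0.18) and CCND1 (0.44 ± 0.12) were higher, and RRM1 (-0.56 ± 0.14), which makes deoxynucleotides, was lower. The replication clamp PCNA (-0.21 ± 0.17) and the helicase subunit MCM2 (-0.09 ± 0.17) were not called. The call of CCND3 was lost in 3 of the 4 fits (adjusted p = 0.064 without Lipo 2, 0.063 without Lipo 3 and 0.0536 without OE 2). Of 25 replication-dependent histone genes tested, 8 were called higher (32.0%, against 6.79% of all genes), none was called lower and 17 were not called. A positive fold change was found in 23 of the 25, against 7805 of all 15832 genes, and the median was 1.08, with 2, 2, 3 and 2 calls without Lipo 2, Lipo 3, OE 1 and OE 2. These genes are near-identical copies, so reads may be split between them. H2AC6 stood at 16.7 and 18.3 CPM in Lipo and 42.9 and 43.8 CPM in OE (log2 fold change 1.31 ± 0.24, adjusted p = 0.0021) and alone held. H2BC12 stood at 23.1 and 30.1 CPM in Lipo and 53.7 and 44.7 CPM in OE (log2 fold change 0.89 ± 0.18, adjusted p = 0.0048; adjusted p = 0.11 without Lipo 2 and 0.079 without OE 1). WT lay below OE for both, at 19.02 to 30.2 CPM for H2AC6 and 26.8 to 27.7 CPM for H2BC12.

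**Figure D5:**
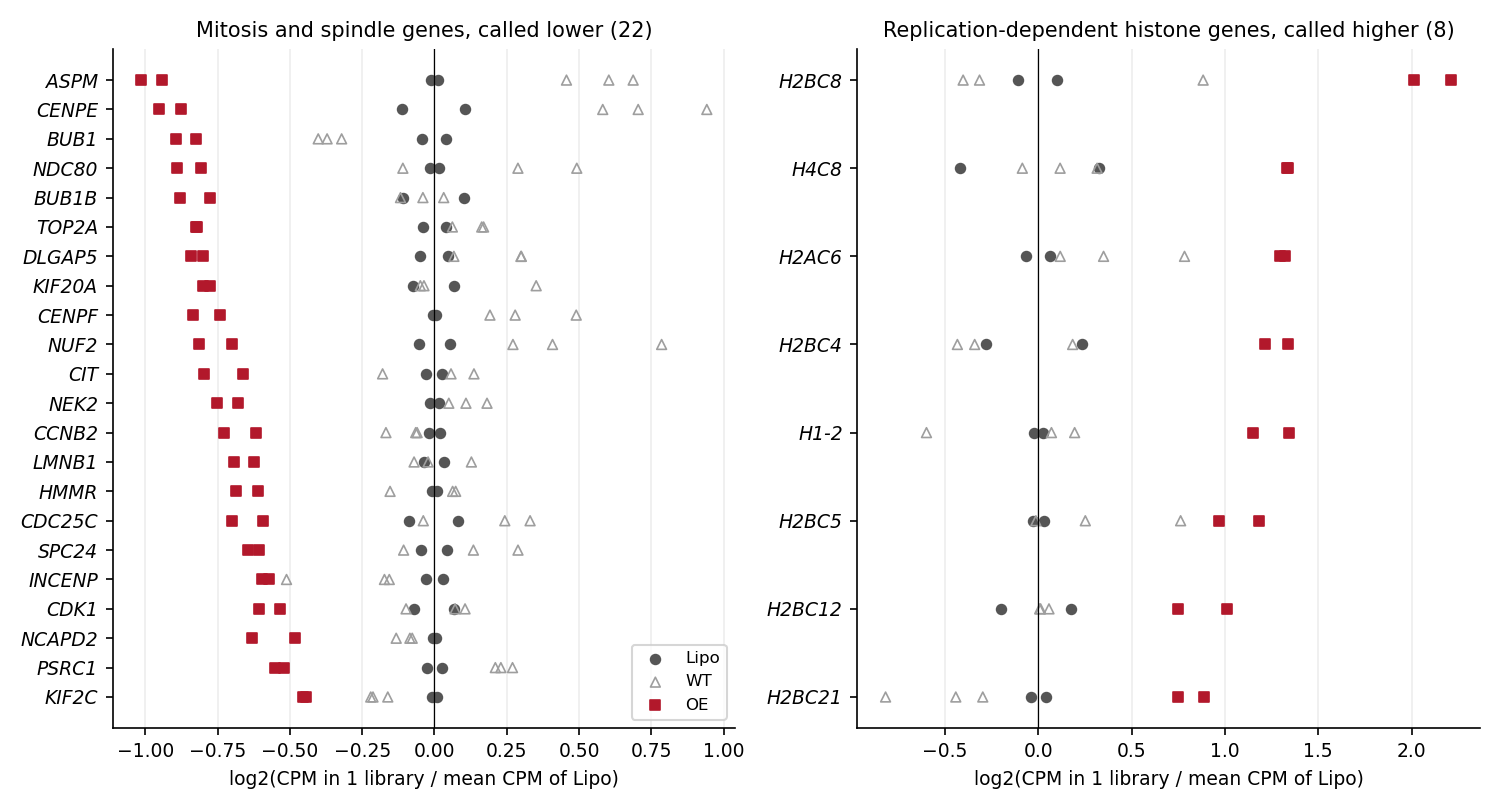
Level in each library relative to the Lipo mean, on a log2 scale, for the 22 mitosis genes called lower (left) and the 8 histone genes called higher (right); circles are Lipo, squares OE and triangles WT. Every OE square lies left of its Lipo circles in the mitosis panel and right of them in the histone panel, while WT triangles lie on both sides of 0.

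Cell-cycle inhibitors and genes of p53 and apoptosis rose in 17 of 64 cases (26.6%, against 6.79% of all genes) and fell in 8 (12.5%, against 5.53%), with 8 rises and 1 fall held. CDKN1A (p21) was called higher at 99.7 and 123 CPM in Lipo and 192 and 178 CPM in OE (log2 fold change 0.73 ± 0.20, adjusted p = 0.028) but did not hold (adjusted p 0.081 to 0.25 without any 1 of the 4 libraries), and WT was lower again at 56.2 to 69.7 CPM. The death-promoting BAK1 went from 22.1 and 23.6 CPM to 66.1 and 67.1 CPM (log2 fold change 1.54 ± 0.21, adjusted p = 1.9e-04). PMAIP1 (NOXA) went from 128 and 139.7 CPM to 308 and 286 CPM (log2 fold change 1.15 ± 0.15, adjusted p = 1.3e-04). Beside them the survival genes BIRC3 and BCL2A1 rose, as given above, so that both kinds moved up. RBL2 (p130), a pocket protein of quiescence, fell from 111 and 112 CPM to 60.9 and 54.7 CPM (log2 fold change -0.95 ± 0.16, adjusted p = 0.0013). These held. The p53 target MDM2 was not called (log2 fold change -0.08 ± 0.15, adjusted p = 0.78), and the list as a whole had a median of 0.25.

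Immediate early genes moved both ways. FOS fell from 259 and 261 CPM to 101 and 92.8 CPM (log2 fold change -1.42 ± 0.24, adjusted p = 0.0012). FOSB went from 252 and 244 CPM to 74.7 and 65.8 CPM (log2 fold change -1.82 ± 0.29, adjusted p = 7.9e-04). NR4A1 went from 161 and 168 CPM to 62.3 and 48.97 CPM (log2 fold change -1.56 ± 0.29, adjusted p = 0.0027). KLF10 rose from 145 and 149 CPM to 376 and 401 CPM (log2 fold change 1.40 ± 0.16, adjusted p = 2.8e-05). MAFF went from 57.9 and 60.6 CPM to 127 and 129.8 CPM (log2 fold change 1.12 ± 0.18, adjusted p = 6.6e-04). These 5 held. FOSB was 84.2 to 145 CPM in WT, and OE was not called against it (adjusted p = 0.12), whereas FOS in WT (157 to 242 CPM) lay well above OE. FOSL1, the Fos member of invasive carcinoma cells, went up from 811 and 808 CPM to 1402 and 1298 CPM (log2 fold change 0.74 ± 0.15, adjusted p = 0.0046; adjusted p = 0.059 without Lipo 2, 0.065 without Lipo 3 and 0.062 without OE 1). In all, 6 of 34 rose and 6 fell (17.6% each, against 6.79% and 5.53% of all genes). Without Lipo 2, Lipo 3, OE 1 and OE 2 there were 4, 3, 3 and 4 rises and 3, 3, 4 and 3 falls.

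Genes of endoplasmic reticulum stress and the integrated stress response rose in 11 of 51 cases (21.6%, against 6.79% of all genes) and fell in 4 (7.84%, against 5.53%). Counts without Lipo 2, Lipo 3, OE 1 and OE 2 were 4, 5, 5 and 5 rises and 1 fall each, and with WT as the control 29 rose and 1 fell. PPP1R15A (GADD34), which restarts translation, stood at 295 and 266 CPM in Lipo and 698 and 704 CPM in OE (log2 fold change 1.32 ± 0.14, adjusted p = 1.8e-05). The chaperone partner DNAJB9 stood at 20.02 and 19.8 CPM in Lipo and 55.2 and 55.4 CPM in OE (log2 fold change 1.47 ± 0.22, adjusted p = 3.8e-04). EDEM1, which sends misfolded glycoproteins to degradation, fell from 157 and 157 CPM to 83.5 and 80.9 CPM (log2 fold change -0.93 ± 0.15, adjusted p = 7.0e-04). These 3 held, while HSPA5 (BiP), at 1445 and 1438 CPM in Lipo and 2253 and 2348 CPM in OE (log2 fold change 0.67 ± 0.15, adjusted p = 0.0073), did not (adjusted p 0.058 to 0.088 without any 1 of the 4 libraries). Of the 11 rises, EIF2AK2 and WARS1 are also interferon-induced genes. Of 79 cytosolic ribosomal proteins, 7 were called lower (8.86%, against 5.53% of all genes) and none higher. The median was -0.24, or -0.08 with WT as the control, and none of the 7 held (1, 0, 0 and 0 calls without Lipo 2, Lipo 3, OE 1 and OE 2). RPL3, for example, stood at 1364 and 1418 CPM in Lipo and 909 and 913 CPM in OE (log2 fold change -0.61 ± 0.14, adjusted p = 0.0098). Of 37 genes of the TGF-beta and BMP pathways tested, 6 rose (16.2%, against 6.79% of all genes) and 2 fell (5.41%, against 5.53%). With WT as the control 7 rose and 4 fell. Among ligands of the TGF-beta family, BMP2 rose beside INHBA, from 0.291 and 0.228 CPM to 5.42 and 3.63 CPM (log2 fold change 4.09 ± 0.63, adjusted p = 5.7e-04). Their binding inhibitor FSTL3 stood at 25.9 and 27.7 CPM in Lipo and 75.2 and 81.4 CPM in OE (log2 fold change 1.55 ± 0.26, adjusted p = 0.0013). All 3 held.

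Gene groups that DNA methylation is known to restrain moved unevenly. Zinc finger genes of the ZNF family, many of which encode repressors with a KRAB domain, rose in 40 of 435 cases and fell in 2, against 6.79% and 5.53% of all genes, with a median of 0.27 and 320 positive fold changes. The excess of rises was not seen against WT, where 44 rose and 42 fell, and without Lipo 2, Lipo 3, OE 1 and OE 2 there were 12, 5, 11 and 9 rises. ZNF697 (1.79 and 1.91 CPM in Lipo and 5.67 and 7.08 CPM in OE; log2 fold change 1.78 ± 0.31, adjusted p = 0.0014), ZNF462 (30.7 and 26.4 CPM in Lipo and 57.3 and 58.6 CPM in OE; log2 fold change 1.02 ± 0.17, adjusted p = 8.5e-04) and ZNF165 (12.7 and 14.9 CPM in Lipo and 30.5 and 27.5 CPM in OE; log2 fold change 1.07 ± 0.19, adjusted p = 0.0015) are the 3 rises that held. Of 19 genes often methylated in lung cancer, RASSF1, a tumour suppressor, rose from 8.87 and 8.57 CPM to 23.5 and 23.4 CPM (log2 fold change 1.43 ± 0.27, adjusted p = 0.0028). Counts are per gene and do not tell the transcripts of RASSF1 apart. TFPI2 rose as given above, and both held, while PTPRF (adjusted p = 0.0535 without Lipo 2, 0.064 without OE 1 and 0.059 without OE 2) and RASSF5 (adjusted p = 0.086 without Lipo 2, 0.33 without Lipo 3 and 0.4 without OE 1) were called lower without holding. CDKN2A and APC were not called, at 0.13 ± 0.18 and -0.14 ± 0.19. Of 50 germline genes silenced by methylation in somatic cells, only 5 had enough counts to be tested, and 1 fell and none rose. Of the 15 imprinted genes tested, edgeR called none; at an unadjusted p under 0.05 there were 1 higher and 1 lower, and DESeq2 called 1 lower. In the promoter windows the median number of CpG was 24 in genes that rose outside the interferon lists, 26 in genes that fell and 26 in all tested genes.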

How the data were processed

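RNA of 10 H441 libraries was sequenced after preparation with a stranded total RNA kit from 1.0 ug of total RNA, per the labels' protocols. The authors deposited 1 table of raw counts per gene; HISAT2 2.1.0, FastQC, featureCounts, edgeR and GRCh38 are named in the submitters' processing notes without role or order, and the annotation and strand setting are not given in the sources used here. Of its columns, 2 matched no sample and were not used. Their headers name a further Lipo library and a further TET1 overexpression library. Groups came from titles. Genes passing edgeR's filterByExpr were scaled by TMM and fitted with edgeR 4.0.16 (R 4.3.3), with robust quasi-likelihood dispersions over all 10 libraries in 4 groups, which left 6 residual degrees of freedom; the contrast was OE minus Lipo, two-sided, with Benjamini-Hochberg adjustment. The standard error is the fold change divided by the square root of F. The fit was tested on simulated data. For genes with few counts, pooled ratios carry exact 95% intervals, and bounds set a group without counts to 3. DESeq2 1.42.0 and other scalings, filters, controls and left-out libraries were alternatives. Gene lists and the comparison itself were chosen with earlier results of these data known. Genes named are the 15 largest rises outside the interferon lists and the 15 largest falls with at least 5 CPM in the higher group and no overlap, the DNA methylation genes, the cell type markers, and per list up to 4 members with the smallest p in each direction and the first 4 entries. Outside this rule, other ALDH and ATPase genes, AQP5, BAK1, CYP4B1, DLGAP5, EPHX1, ICAM1, MAOA, MMP9, MT-CO2, MT-ND4, MT-ND4L, NFKBIE, RELA, SERPINA1, SLC12A2, SLC6A12, ST8SIA4, SULT2B1 and TNFAIP3 were chosen after their values were seen. Some genes are not reported here.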

Additional observations from a re-analysis of the deposited data

How the results depend on the processing

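The counts of called genes (1075 higher and 875 lower) stayed within 1.5 times under other scalings, filters and DESeq2 (1350 and 1136). With only the 4 libraries compared in the fit they were 2944 and 2720; with WT as the control 1954 and 1999; with all 5 wild-type-labelled libraries as the control 1324 were lower. Leaving out 1 library gave 418 to 1421 higher and 218 to 1236 lower calls, the lowest counts being without Lipo 3 (418 higher) and without OE 1 (218 lower). Without Lipo 2 there were 440 and 329, without Lipo 3 255 lower, without OE 1 477 higher and without OE 2 498 and 294; in these fits the lone library is assumed to vary like the other groups. A fit of the replicate number from the titles as a replicate block called 1453 higher and 1225 lower; OE and Lipo share only number 2, so the number does not pair them. The share of higher calls moved from 55.1% to 68.6% without OE 1.

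Of 184 genes named, 163 were called, and 105 of these stayed called in the same direction under every alternative with Lipo as control. No named gene reversed with Lipo as control. With WT as the control 7 reversed, none of them called: the log2 fold change was 0.46 for ALDH3B2, 0.041 for EPHX1, 0.15 for IDH1, 0.056 for MT-CO2, 0.081 for MT-CYB, 0.048 for MT-ND1 and 0.25 for SOX2. The cause was not tested. Counts of list members moved by more than 1.5 times in 376 of 1280 comparisons. Genes with few counts, such as AQP5, ATP13A4, HAS2 and SLC6A12, are limited by depth.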
